A study of Homo sapiens with 6 samples.

Results

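The amino acid transporters described here are 56 genes of 60611 in the table. They were chosen by gene name, as the genes of the SLC1, SLC3, SLC6, SLC7, SLC36, SLC38 and SLC43 families, with SLC7A1, SLC7A2 and SLC7A11 left out. RNA was measured in EndoC-BH5, a beta cell line of human pancreas whose genotype is labelled WT. The cytokine group was exposed to interferon gamma together with interleukin 1 beta, the vehicle group to vehicle, with 3 libraries in each. The labels give neither a dose nor a time of exposure, nor do they say that replicates came from different cultures. The p-values therefore cover the spread among these libraries, which may be technical.

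Amino acids cross membranes through carriers that differ in what they move and what drives them. Sodium-coupled carriers accumulate amino acids in the cell, exchangers swap one amino acid for another, and carriers of the lysosome return the products of protein breakdown to the cytosol. In beta cells amino acids such as leucine, glutamine and alanine feed insulin secretion and protein synthesis. Cells short of amino acids raise several of these transporters through the GCN2 kinase and the transcription factor ATF4, while lysosomal amino acids activate the growth kinase complex mTORC1.

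Total counts lay between 13689972 and 16175364 in cytokine libraries and between 5871481 and 15894082 in vehicle libraries. Levels are in CPM, counts scaled to a common library total after TMM normalisation. IRF1, an interferon-induced transcription factor, averaged 1229 CPM in the cytokine group and 20.1 CPM in the vehicle group. All 12 beta cell markers were detected, with a summed level of 31829 to 32523 CPM in cytokine libraries and 21608 to 22726 CPM in vehicle libraries. Summed leukocyte markers reached 20.9 to 22.7 CPM in cytokine libraries and 5.24 to 6.08 CPM in vehicle libraries, nearly all from CD68, while PTPRC, which defines leukocytes, averaged 0.12 and 0.13 CPM. Summed fibroblast markers reached 12.4 to 13.9 CPM in cytokine libraries and 3.22 to 4.09 CPM in vehicle libraries, nearly all from PDGFRB. Alpha cell markers summed to 1930 to 2083 CPM in cytokine libraries and 1887 to 2046 CPM in vehicle libraries, mostly TTR, and delta cell markers to 568 to 607 CPM and 540 to 608 CPM, mostly SST. Duct markers summed to 131 to 140 CPM in cytokine libraries and 151 to 169 CPM in vehicle libraries, mostly KRT19, and acinar markers to 4.64 to 5.66 CPM and 5.56 to 5.91 CPM, mostly CPA1. MMP7 of duct and PRSS1 of acinar cells had 0 counts in every library, and endothelial markers summed to less than 1 CPM. The part of these cell types in the results was not tested.

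Of the 56 transporter genes, 36 had enough counts to be tested and 20 did not. Under cytokines 14 rose, 15 fell and 7 did not pass the test, an edgeR quasi-likelihood fit on all genes with Benjamini-Hochberg adjusted p below 0.05. Among all 17847 genes tested, 28.3% rose, 28.8% fell and 57.1% did either. All 3 cytokine libraries lay above all vehicle libraries for 13 transporters, against 30.3% of all genes tested, and below them for 15, against 30.8%, which makes 61.1% of all genes without overlap in either direction. A change of at least 2-fold was seen in 4 transporters that rose (SLC7A14, SLC38A1, SLC7A5 and SLC38A4), where 5.97% of all genes tested did so. It was seen in 6 that fell (SLC6A18, SLC38A3, SLC7A9, SLC6A19, SLC38A8 and SLC1A1), where 4.3% of all genes tested did so. The median log2 fold change of the 36 was 0.02, against -0.02 over all genes tested. Scaling by library size alone shifted the median of all genes to -0.22 and gave 10 transporters higher and 17 lower. In bulk RNA, fewer cells of a type and less RNA per cell cannot be told apart.

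**Figure D1:**
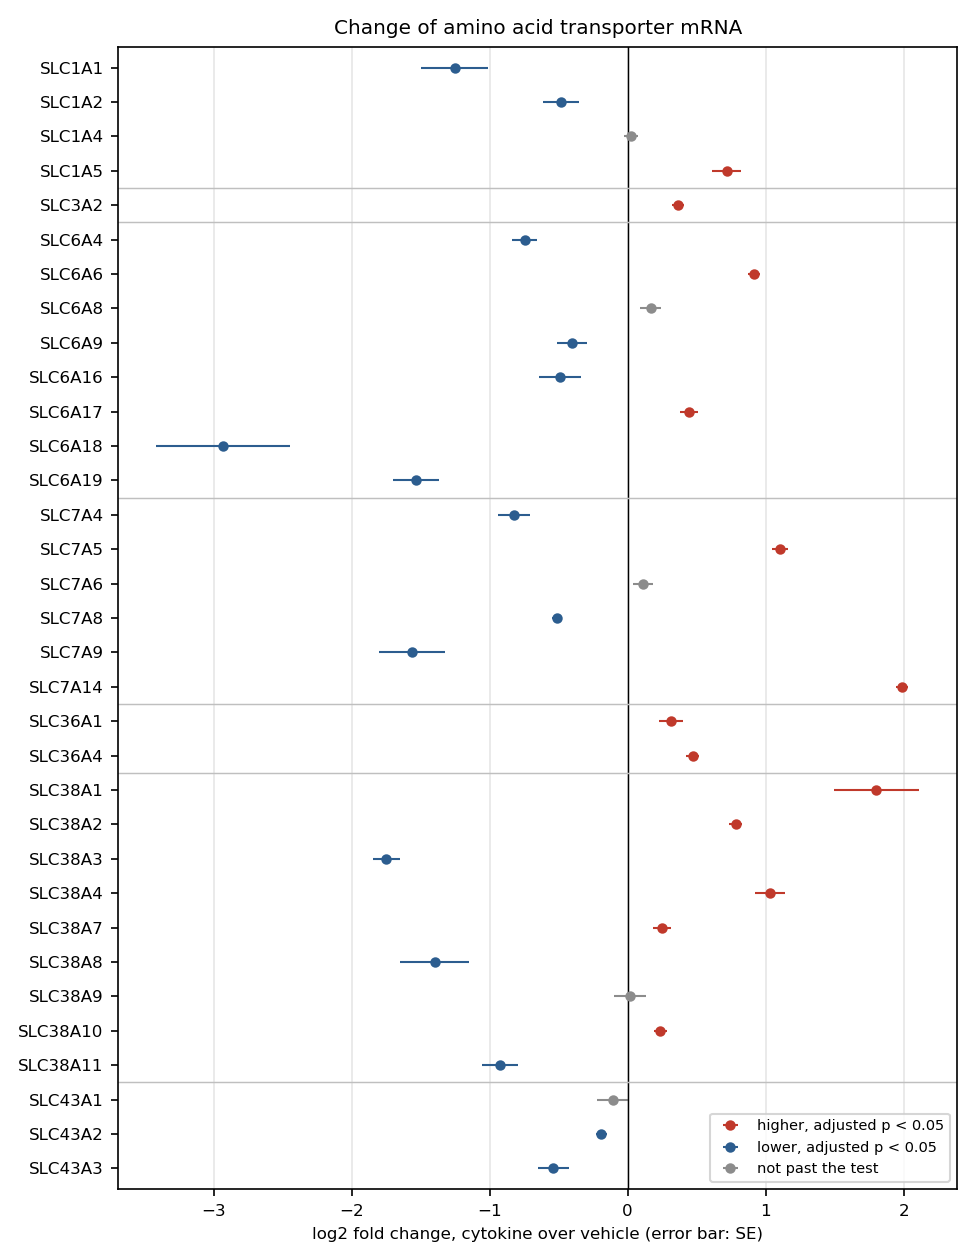
The log2 fold change (cytokine over vehicle) of the 33 transporters named by level or size of change, with bars of 1 SE, grouped by family and coloured by the outcome of the edgeR test. SLC7A14 stands farthest to the right at 1.99 and SLC6A18 farthest to the left at -2.93.

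Per length of exon, the 14 that rose had a median level of 8.11 CPM per kb over all libraries, with a range of 0.145 to 61.8, against 8.91 CPM per kb for all genes that rose. The 15 that fell had a median of 1.49 CPM per kb, with a range of 0.284 to 64.9, against 4.50 CPM per kb for all genes that fell. The ranges overlap almost wholly, and the medians were not compared with a test. SLC7A8, at 64.9 CPM per kb over all libraries, was the most abundant transporter that fell.

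The summed level of all 56 transporters was 377 ± 2.09 CPM per kb in cytokine libraries and 309 ± 6.38 CPM per kb in vehicle libraries (SD, n = 3 each). The same 10 genes led in both groups and made up 86.0% ± 0.427 of the cytokine sum and 81.3% ± 0.624 of the vehicle sum. Their order differed. In the cytokine group it ran SLC3A2, SLC7A8, SLC7A14, SLC6A6, SLC38A2, SLC7A5, SLC38A10, SLC1A4, SLC43A2 and SLC36A4. In the vehicle group it ran SLC7A8, SLC3A2, SLC6A6, SLC38A10, SLC43A2, SLC38A2, SLC1A4, SLC7A5, SLC7A14 and SLC36A4. SLC7A14 took 11.3% ± 0.384 of the cytokine sum and 3.48% ± 0.0934 of the vehicle sum, and SLC7A8 took 14.2% ± 0.136 and 24.7% ± 0.112. These shares were not tested.

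**Figure D2:**
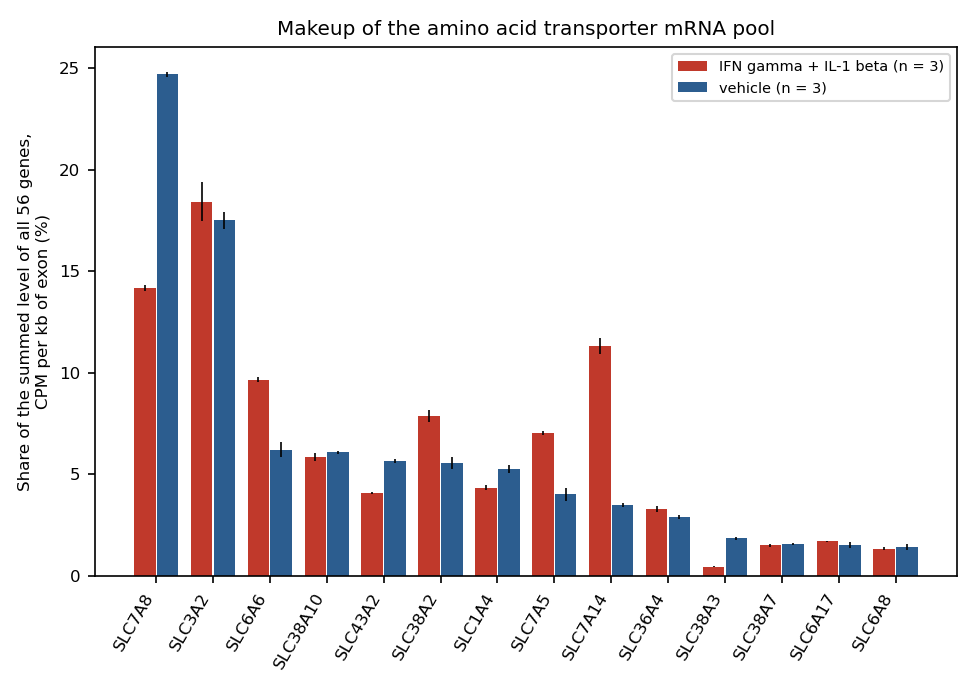
Mean share of the summed transporter level (CPM per kb, percent) taken by the leading genes in the 3 cytokine and 3 vehicle libraries, with error bars of SD. SLC7A14 takes 11.3% of the cytokine sum on average and 3.48% of the vehicle sum, while SLC7A8 takes 14.2% and 24.7%.

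With all 6 libraries in the fit, SLC7A14 rose more than any other tested transporter. It encodes a lysosomal membrane protein of the cationic amino acid transporter branch, and mutations in it are known in inherited retinal degeneration. The gene lies on the minus strand of chromosome 3, from 170459584 to 170586074 (GRCh38, GENCODE 29). Its level was 453, 457 and 427 CPM in cytokine libraries, against 110, 118 and 109 CPM in vehicle libraries. The groups were far apart, and SLC7A14 was 3.97-fold higher with cytokines (log2 1.99, SE 0.0463, edgeR adjusted p = 4.7e-25). The sequence before its start is shown because of this change. The RefSeq window (GRCh38.p14, chr3:170586076-170586325, minus strand) covers the 250 bases upstream and held none of the motifs searched below, so no base is in capitals.
SLC7A14: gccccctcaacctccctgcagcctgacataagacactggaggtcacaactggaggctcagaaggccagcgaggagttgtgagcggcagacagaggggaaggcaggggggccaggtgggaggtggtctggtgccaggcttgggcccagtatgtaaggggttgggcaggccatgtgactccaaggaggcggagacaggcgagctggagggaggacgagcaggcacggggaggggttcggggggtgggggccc

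SLC7A4, which shares the cationic transporter fold but has no well established substrate, moved the other way. It had 5.79, 5.90 and 6.16 CPM in cytokine libraries, against 11.1, 11 and 9.94 CPM in vehicle libraries. Without overlap between groups, it fell by 0.82 on the log2 scale (SE 0.114, edgeR adjusted p = 3.8e-07).

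The heteromeric transporters pair a heavy chain of the SLC3 family, which carries the complex to the membrane, with a light chain of the SLC7 family, which does the transport. SLC3A2, the heavy chain 4F2hc (CD98), had 355, 344 and 380 CPM in cytokine libraries, against 280, 293 and 267 CPM in vehicle libraries. It was 1.29-fold higher with no overlap (log2 0.36, SE 0.0448, edgeR adjusted p = 5.2e-08). Its main light chains moved in opposite directions. SLC7A5, the light chain LAT1, exchanges glutamine for leucine and other large neutral amino acids. SLC7A5 had 128, 125 and 123 CPM in cytokine libraries, against 56.7, 65.3 and 54.2 CPM in vehicle libraries, and was 2.15-fold higher (log2 1.10, SE 0.0567, edgeR adjusted p = 2.4e-16). SLC7A8, the light chain LAT2, accepts small and large neutral amino acids. SLC7A8 had 325, 321 and 316 CPM in cytokine libraries, against 459, 465 and 447 CPM in vehicle libraries. It fell by 0.51 on the log2 scale (SE 0.0393, edgeR adjusted p = 2.9e-12), again with no overlap.

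Per length, SLC7A8 was the more abundant of these light chains in both groups. SLC7A8 averaged 53.5 ± 0.761 CPM per kb in the cytokine group and 76.3 ± 1.51 CPM per kb in the vehicle group, and SLC7A5 averaged 26.5 ± 0.565 and 12.4 ± 1.23 CPM per kb (SD, n = 3 each). The ratio of SLC7A5 to SLC7A8 was 0.5, 0.493 and 0.493 in cytokine libraries and 0.156, 0.178 and 0.153 in vehicle libraries. That ratio was chosen after its values were seen and has no test. The log2 ratio of SLC7A5 to its heavy chain, in log2 CPM, was -1.52 ± 0.0929 in the cytokine group and -2.25 ± 0.0809 in the vehicle group. The difference of 0.74 gave p = 0.1 in an exact permutation test (two-sided), which is the lowest p possible for 3 libraries against 3. Without SLC7A11, a further light chain that lies outside the genes described here, SLC7A5, SLC7A6, SLC7A7 and SLC7A8 summed to 1.22 ± 0.0778 times the SLC3A2 level per kb in the cytokine group and 1.72 ± 0.0226 times in the vehicle group.

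**Figure D3:**
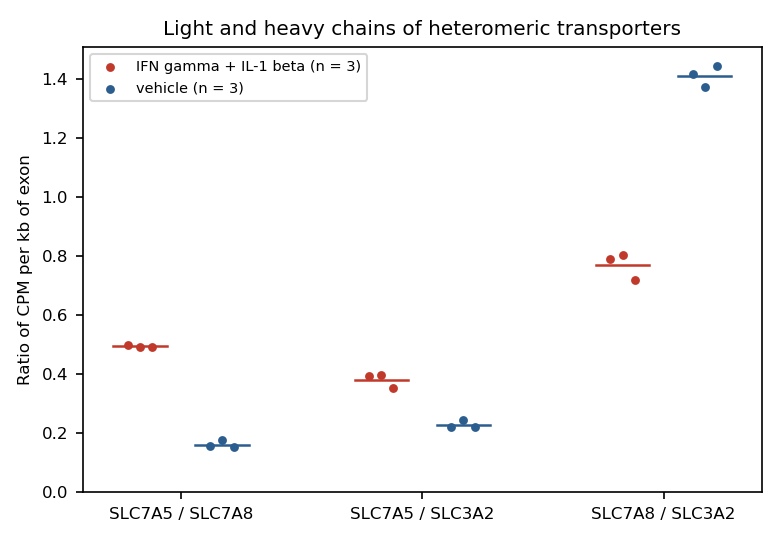
Levels per length (CPM per kb) of the light chains relative to each other and to the heavy chain SLC3A2, one point per library, with the cytokine group left of the vehicle group. The ratio of SLC7A5 to SLC7A8 is 0.493 to 0.5 in cytokine libraries and 0.153 to 0.178 in vehicle libraries.

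The other light chains were lower in abundance. SLC7A6, which exchanges cationic amino acids for neutral ones, had 33.7, 36.2 and 31.2 CPM in cytokine libraries, against 33.0, 32.8 and 28.9 CPM in vehicle libraries. The groups overlapped and the difference did not pass (log2 0.11, SE 0.0722, edgeR adjusted p = 0.19). SLC7A6OS on the opposite strand shares 44.4% of its exon bases, and whether the counting used strand is not stated in the labels. SLC7A7, with the same type of exchange, passed the test at a low level of 1.18 ± 0.119 CPM in the cytokine group and 0.655 ± 0.255 CPM in the vehicle group (log2 0.93, SE 0.347, edgeR adjusted p = 0.023). Its call was lost without vehicle replicate 3 (log2 0.53, adjusted p = 0.30), cytokine replicate 2 (adjusted p = 0.051) or cytokine replicate 3 (adjusted p = 0.073). SLC7A9, the partner of SLC3A1 in the cystine transporter of kidney and gut, had 1.07, 0.865 and 0.941 CPM in cytokine libraries, against 3.18, 2.76 and 2.81 CPM in vehicle libraries. It fell by 1.56 on the log2 scale (SE 0.236, edgeR adjusted p = 1.6e-06). SLC3A1 itself had 0.5, 3 and 6 counts in cytokine libraries, against 2, 11.5 and 9.5 counts in vehicle libraries, too few for the count filter. It passed as lower when no count filter was used (log2 -1.64, edgeR adjusted p = 0.020) and not with DESeq2 (log2 -1.62, adjusted p = 0.17). In the authors' deposited table SLC3A1 has a log2 fold change of -1.49 and an FDR of 0.049. PREPL on the opposite strand shares 29.4% of the exon bases of SLC3A1, and AC013717.1, a protein-coding gene on the same strand, shares 26.9%.

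Of the 11 SLC38 genes, sodium-coupled carriers of glutamine, alanine and other neutral amino acids, 5 rose, 3 fell, 2 did not pass and 1 was not tested. SLC38A2, the system A carrier that rises in many cell types when amino acids are scarce, had 190, 196 and 202 CPM in cytokine libraries, against 106, 118 and 115 CPM in vehicle libraries. It was 1.72-fold higher (log2 0.78, SE 0.0473, edgeR adjusted p = 1.1e-14) and the most abundant member of the family per length in the cytokine group, at 29.7 ± 0.943 CPM per kb there and 17.1 ± 0.981 CPM per kb in the vehicle group. SLC38A4, another system A carrier, had 16.4, 19.7 and 15.5 CPM in cytokine libraries, against 9.06, 7.17 and 8.89 CPM in vehicle libraries. The groups did not overlap, and it was 2.05-fold higher (log2 1.03, SE 0.11, edgeR adjusted p = 2.8e-09).

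SLC38A1, the remaining system A carrier, was scarce. It had 36, 30 and 32 counts in cytokine libraries (2.40, 2.36 and 2.32 CPM), against 1, 5 and 17 counts in vehicle libraries (0.159, 0.459 and 0.994 CPM). It rose by 1.80 on the log2 scale (SE 0.308, edgeR adjusted p = 1.1e-05), and by 2.72 without vehicle replicate 3, the vehicle library with the highest level. The 3 system A genes are neighbours on the minus strand of chromosome 12. SLC38A1 spans 46183063 to 46270017, SLC38A2 46358189 to 46372867 and SLC38A4 46764761 to 46832408 (GRCh38).

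SLC38A3, which moves glutamine and histidine in exchange for protons and is known from liver, kidney and brain, changed most among the more abundant transporters that fell. It had 6.32, 6.45 and 7.39 CPM in cytokine libraries, against 21.8, 23.2 and 22.5 CPM in vehicle libraries. Each cytokine library lay below every vehicle library, and SLC38A3 was 3.36-fold lower (log2 -1.75, SE 0.0946, edgeR adjusted p = 8.1e-16). SLC38A11, a little studied relative, had 4.79, 4.72 and 4.49 CPM in cytokine libraries, against 10.5, 8.18 and 8.66 CPM in vehicle libraries (log2 -0.92, SE 0.129, edgeR adjusted p = 4.6e-07). SLC38A8, known from eye development, had 1.26, 1.10 and 1.81 CPM in cytokine libraries, against 5.88, 2.85 and 3.39 CPM in vehicle libraries (log2 -1.40, SE 0.249, edgeR adjusted p = 2.3e-05). An antisense gene shares 23.7% of the exon bases of SLC38A8, and had 0 counts summed over cytokine libraries and 1 over vehicle libraries.

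SLC38A7 and SLC38A10 rose by little. SLC38A7, which exports glutamine from lysosomes, had 41.1, 37.3 and 40.1 CPM in cytokine libraries, against 35.3, 33.5 and 32.1 CPM in vehicle libraries (log2 0.25, SE 0.0652, edgeR adjusted p = 0.0016). SLC38A10 had 175, 164 and 174 CPM in cytokine libraries, against 147, 147 and 141 CPM in vehicle libraries (log2 0.24, SE 0.0447, edgeR adjusted p = 4.2e-05). Both calls were lost with scaling by library size alone, at log2 0.05 (adjusted p = 0.53) for SLC38A7 and 0.04 (adjusted p = 0.48) for SLC38A10. SLC38A9, the lysosomal arginine sensor of mTORC1, had 8.45, 8.10 and 7.68 CPM in cytokine libraries, against 8.26, 7.17 and 8.42 CPM in vehicle libraries. The groups overlapped and no difference was detected (log2 0.02, SE 0.115, edgeR adjusted p = 0.92), with a sign that turned negative when scaled by library size alone.

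The SLC36 family is named for proton-coupled carriers, and both of its tested genes rose. SLC36A4, a high-affinity carrier of proline and tryptophan, had 121, 125 and 115 CPM in cytokine libraries, against 86.4, 85.7 and 87.5 CPM in vehicle libraries (log2 0.47, SE 0.0485, edgeR adjusted p = 1.5e-09). SLC36A1, which releases small neutral amino acids from lysosomes, had 25.7, 27.2 and 21.4 CPM in cytokine libraries, against 19.2, 22.0 and 18.8 CPM in vehicle libraries. The SLC36A1 groups overlapped although the gene passed (log2 0.31, SE 0.0874, edgeR adjusted p = 0.0031). Its call was lost without vehicle replicate 3 (log2 0.24, adjusted p = 0.058) and with library size alone (log2 0.11, adjusted p = 0.27).

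**Figure D4:**
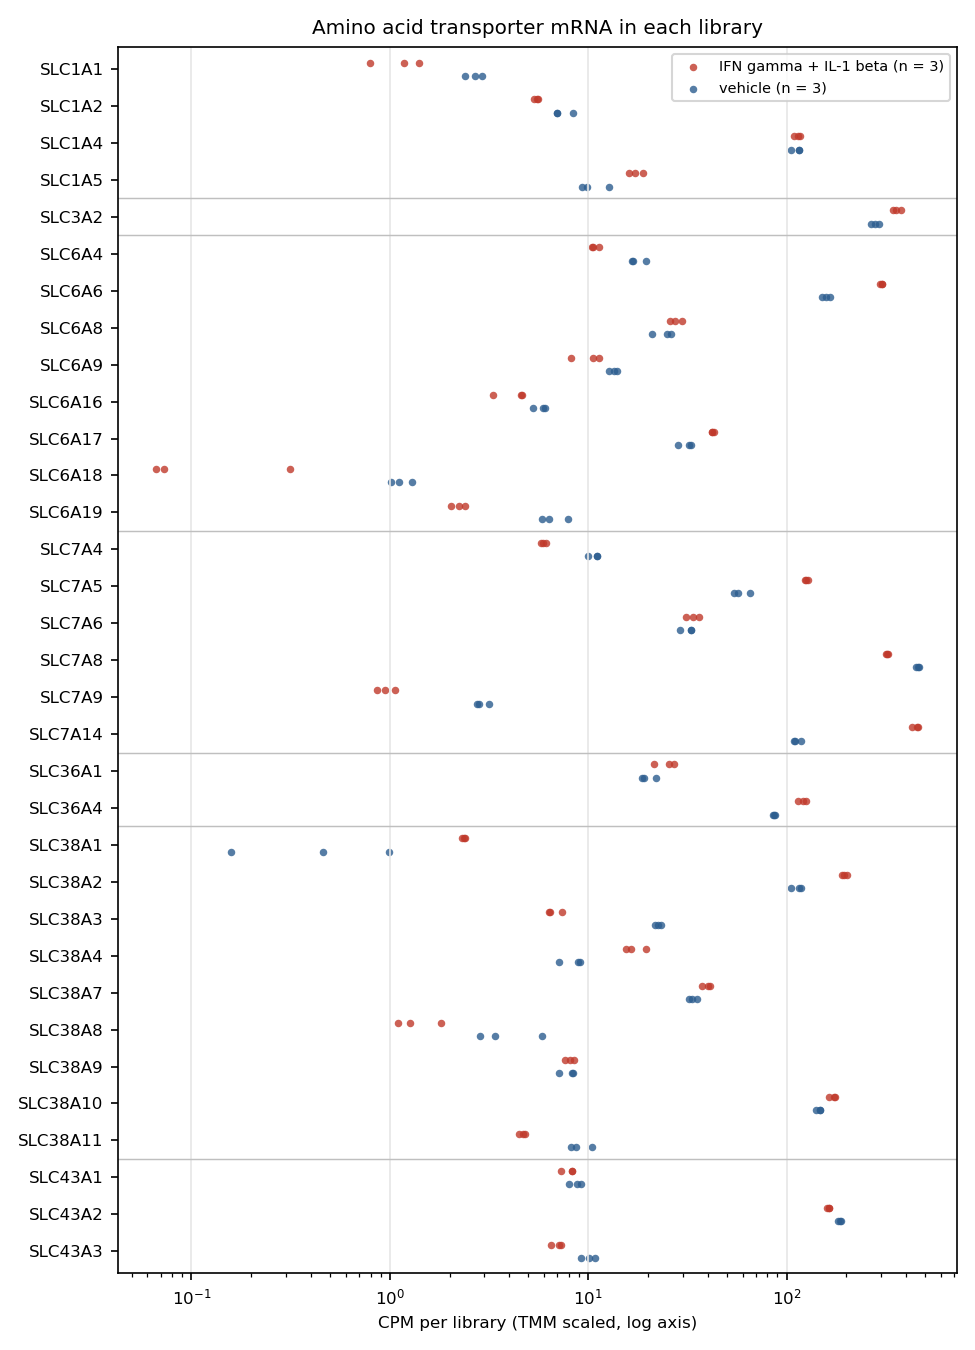
TMM-scaled CPM (log axis) of the 33 transporters named by level or size of change, one point per library, cytokine above vehicle for each gene. The cytokine libraries of SLC7A14 sit at 427 to 457 CPM and its vehicle libraries at 109 to 118 CPM, while the points of SLC1A4 and SLC38A9 overlap.

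The SLC1 family holds glutamate transporters and exchangers of small neutral amino acids. SLC1A5 (ASCT2), the sodium-dependent glutamine exchanger, had 18.8, 17.1 and 16.1 CPM in cytokine libraries, against 9.85, 12.8 and 9.36 CPM in vehicle libraries. It was 1.65-fold higher without overlap (log2 0.72, SE 0.105, edgeR adjusted p = 9.8e-07). SLC1A4 (ASCT1), its relative for serine and alanine, had 117, 114 and 109 CPM in cytokine libraries, against 115, 116 and 105 CPM in vehicle libraries, and overlapped (log2 0.02, SE 0.0494, edgeR adjusted p = 0.71). With library size alone SLC1A4 was instead lower, with log2 -0.18 and adjusted p = 0.0021. Per length SLC1A4 averaged 16.3 CPM per kb in the cytokine group and 16.2 CPM per kb in the vehicle group. An antisense gene shares 23.4% of the exon bases of SLC1A5, and had 3 counts summed over cytokine libraries and 6 over vehicle libraries.

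The glutamate transporters SLC1A1 and SLC1A2 fell, and the other 3 of the family were not tested. SLC1A1 (EAAT3) had 1.40, 1.18 and 0.797 CPM in cytokine libraries, against 2.7, 2.39 and 2.92 CPM in vehicle libraries (log2 -1.25, SE 0.242, edgeR adjusted p = 5.9e-05). SLC1A2 (EAAT2), the main glutamate carrier of astrocytes, had 5.53, 5.34 and 5.58 CPM in cytokine libraries, against 6.99, 6.98 and 8.42 CPM in vehicle libraries (log2 -0.48, SE 0.128, edgeR adjusted p = 0.0019). Neither pair of groups overlapped. The SLC1A2 call was lost without vehicle replicate 3 (log2 -0.35, adjusted p = 0.068) and with DESeq2 (adjusted p = 0.096).

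The SLC6 family couples transport to sodium and chloride and carries neurotransmitters as well as amino acids. Of its 19 members, 2 rose, 5 fell, 2 did not pass and 10 were not tested. SLC6A6, the taurine transporter, had 301, 304 and 296 CPM in cytokine libraries, against 151, 158 and 165 CPM in vehicle libraries. It was 1.89-fold higher (log2 0.92, SE 0.0435, edgeR adjusted p = 3.3e-17) and among the most abundant transporters per length, at 36.4 ± 0.487 CPM per kb in the cytokine group and 19.2 ± 0.858 CPM per kb in the vehicle group. SLC6A17, a vesicular carrier of neutral amino acids in neurons, had 41.9, 43.1 and 42.3 CPM in cytokine libraries, against 32.9, 28.2 and 32.4 CPM in vehicle libraries (log2 0.45, SE 0.0662, edgeR adjusted p = 1.2e-06). Both were higher in every cytokine library than in any vehicle library.

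Among the SLC6 genes that fell, SLC6A4, the serotonin transporter, had 10.6, 11.4 and 10.4 CPM in cytokine libraries, against 16.7, 16.8 and 19.7 CPM in vehicle libraries (log2 -0.75, SE 0.0935, edgeR adjusted p = 6.5e-08). SLC6A9, the glycine transporter GLYT1, had 10.6, 11.4 and 8.18 CPM in cytokine libraries, against 14, 13.5 and 12.8 CPM in vehicle libraries (log2 -0.40, SE 0.109, edgeR adjusted p = 0.0024). Its change was -0.26 without cytokine replicate 3, the lowest library, and its call was lost with DESeq2 (adjusted p = 0.055). SLC6A16, which has no known substrate, had 3.33, 4.56 and 4.63 CPM in cytokine libraries, against 5.24, 6.06 and 5.91 CPM in vehicle libraries (log2 -0.49, SE 0.152, edgeR adjusted p = 0.0067). The SLC6A16 call was lost without cytokine replicate 1 (log2 -0.33, adjusted p = 0.087) and with DESeq2 (adjusted p = 0.15). SLC6A8, the creatine transporter, had 29.7, 25.8 and 27.3 CPM in cytokine libraries, against 21, 25 and 26.1 CPM in vehicle libraries, and did not pass (log2 0.17, SE 0.0781, edgeR adjusted p = 0.070). SLC6A8 passed without vehicle replicate 3 (log2 0.24, adjusted p = 0.038) or cytokine replicate 2 (log2 0.22, adjusted p = 0.034), and turned to log2 -0.04 with library size alone.

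SLC6A19 encodes a neutral amino acid transporter of the kidney and gut brush border, and its loss causes Hartnup disorder. SLC6A18 is a close relative of SLC6A19. They lie next to each other on the plus strand of chromosome 5, SLC6A19 from 1201595 to 1225117 and SLC6A18 from 1225355 to 1246189 (GRCh38). SLC6A19 had 2.40, 2.04 and 2.24 CPM in cytokine libraries, against 7.94, 5.88 and 6.32 CPM in vehicle libraries, and was 2.89-fold lower (log2 -1.53, SE 0.166, edgeR adjusted p = 4.3e-09). SLC6A18 had 1, 4 and 1 counts in cytokine libraries, against 7, 11 and 22 counts in vehicle libraries. Its log2 fold change of -2.93 (SE 0.485, edgeR adjusted p = 6.7e-06) therefore rests on few counts. Collectrin (CLTRN), which carries these transporters to the membrane in mouse kidney, averaged 0.981 ± 0.187 CPM in the cytokine group and 1.86 ± 0.352 CPM in the vehicle group (SD, n = 3 each; log2 -0.82, SE 0.274, edgeR adjusted p = 0.011). The call of CLTRN was lost without cytokine replicate 2 (log2 -0.70, adjusted p = 0.055) and with DESeq2 (adjusted p = 0.14).

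The SLC43 genes SLC43A1 and SLC43A2 encode facilitators of large neutral amino acids that work without exchange. SLC43A2 (LAT4) had 164, 160 and 163 CPM in cytokine libraries, against 182, 187 and 186 CPM in vehicle libraries, a small fall without overlap (log2 -0.19, SE 0.0424, edgeR adjusted p = 0.00033). SLC43A1 (LAT3) had 8.32, 8.33 and 7.31 CPM in cytokine libraries, against 9.22, 7.99 and 8.77 CPM in vehicle libraries, and did not pass (log2 -0.11, SE 0.114, edgeR adjusted p = 0.44). SLC43A3, a carrier of purine bases rather than amino acids, had 7.32, 7.15 and 6.52 CPM in cytokine libraries, against 9.22, 10.8 and 10.1 CPM in vehicle libraries (log2 -0.54, SE 0.112, edgeR adjusted p = 0.00015). A readthrough gene on the same strand shares 29.9% of the exon bases of SLC43A3.

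SLC6A2, the noradrenaline transporter, and SLC38A6 were tested at low level and did not pass (edgeR adjusted p = 0.46 and 0.63). The 20 untested transporters had at most 11.5 counts in any library. They comprised 3 SLC1 genes, SLC3A1, 10 SLC6 genes, 3 SLC7 genes, SLC36A2, SLC36A3 and SLC38A5. SLC6A11, a carrier of the inhibitory transmitter GABA, had 0 counts in every library. SLC6A20, a proline transporter, had 0 counts in every cytokine library, against 1, 1 and 2 counts in vehicle libraries. Apart from SLC3A1, none of the untested transporters passed when no count filter was used, at these few counts.

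Promoter windows of RefSeq (GRCh38.p14), from 250 bases before to 50 after a start, were held for 43 of the 56 transporters, in 65 windows. Those without a window included SLC1A2, SLC6A6, SLC7A4, SLC38A3 and SLC43A3. Both strands were searched for 3 motifs. TTGCATCA, the core of an amino acid response element, was in 3 of 65 windows (4.62%) and in 0.866% of all 35114 windows. By gene it was in 3 of 43 transporters and in 1.08% of all 27303 genes. These were SLC1A5, SLC1A4, where it spanned the start, and the untested SLC1A3. TTCNNNGAA, the interferon gamma activated site (GAS), reads the same on both strands and was in 4 of 65 windows (6.15%), against 7.66% of all windows. It was found in SLC38A1, SLC3A2 with a match in each of 2 windows, and SLC1A3. The interferon-stimulated response element was taken as GAAA and GAAA with any 2 bases between. It was in 2 of 65 windows (3.08%), those of SLC38A4 and SLC7A7, against 3.57% of all windows. By gene, TTCNNNGAA was in 3 of 43 transporters (6.98%), against 9.38% of all genes. The interferon-stimulated response element was in 2 of 43 (4.65%), against 4.38% of all genes. A match describes letters and not a site in use, and windows of one gene can belong to starts that these cells do not use.

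The matches in SLC1A5, SLC3A2, SLC38A1 and SLC38A4, which rose, are printed with their flanks, 5′ to 3′ on the strand of the gene, with the motif in capitals. Those of SLC7A7, which also rose, of SLC1A4, which did not pass, and of the untested SLC1A3 are not printed. The SLC1A5 stretch (chr19:46784879-46784936, minus strand) holds TTGCATCA on the opposite strand, 97 bases before a start. Both SLC3A2 stretches (chr11:62880663-62880721 and chr11:62881590-62881648, plus strand) and the SLC38A1 stretch (chr12:46266668-46266726, minus strand) hold TTCNNNGAA. The SLC38A4 stretch (chr12:46826119-46826178, minus strand) holds the interferon-stimulated response element.
SLC1A5: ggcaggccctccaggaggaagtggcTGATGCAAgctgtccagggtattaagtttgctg
SLC3A2, first window: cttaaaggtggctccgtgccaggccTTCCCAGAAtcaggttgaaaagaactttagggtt
SLC3A2, other window: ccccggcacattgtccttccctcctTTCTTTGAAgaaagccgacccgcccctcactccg
SLC38A1: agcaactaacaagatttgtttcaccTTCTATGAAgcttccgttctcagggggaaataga
SLC38A4: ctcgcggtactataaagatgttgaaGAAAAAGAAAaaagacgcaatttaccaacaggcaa

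Genes that sense and use amino acids were counted in 6 lists, beside the 28.3% of all tested genes that rose and the 28.8% that fell. Of 26 ATF4 target and amino acid response genes, 25 were tested, 17 rose and 4 fell, with a median log2 fold change of 0.18. With library size alone, 9 rose and 8 fell. The number that rose was 12 to 17 when 1 library was left out, and 15 with DESeq2. ATF3, a stress-induced transcription factor, averaged 167 ± 7.43 CPM in the cytokine group and 28.6 ± 2.01 CPM in the vehicle group (SD, n = 3 each; log2 2.53, edgeR adjusted p = 3.3e-25). CTH, which makes cysteine from cystathionine, rose by log2 2.15 (adjusted p = 3.6e-13), and PPP1R15A, which recruits the phosphatase that reverses the block of translation, by log2 1.72 (adjusted p = 1.9e-22). VLDLR (log2 -0.57, adjusted p = 2e-12), PSPH of serine synthesis (log2 -0.51, adjusted p = 0.00045) and DDIT4, an inhibitor of mTORC1 (log2 -0.17, adjusted p = 0.018), fell. The DDIT4 groups overlapped, and its call was lost without vehicle replicate 2 or 3 or cytokine replicate 1 or 2 (adjusted p between 0.060 and 0.18). The DDIT4 call was also lost with DESeq2 (adjusted p = 0.12). The number that fell was 2 without vehicle replicate 2, cytokine replicate 1 or cytokine replicate 2.

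Of 8 genes of the eIF2 alpha kinases and the partners of GCN2, 4 rose and 3 fell. EIF2AK2 (PKR), the kinase activated by double-stranded RNA and itself interferon-induced, averaged 148 ± 5.2 CPM in the cytokine group and 54.4 ± 5.67 CPM in the vehicle group (log2 1.42, edgeR adjusted p = 3.3e-19). EIF2AK3 (PERK), the kinase of endoplasmic reticulum stress, rose by log2 0.56 (adjusted p = 5.3e-10), and PPP1R15B, a phosphatase subunit, by log2 0.62. EIF2AK4 (GCN2), the kinase that senses uncharged tRNA, had log2 -0.18 (adjusted p = 0.025) and its partner GCN1 log2 -0.10 (adjusted p = 0.041). The GCN2 call was lost without vehicle replicate 2 (log2 -0.08, adjusted p = 0.35), cytokine replicate 2 or cytokine replicate 3. It was also lost with DESeq2 (adjusted p = 0.20). The GCN1 call was lost without any one of the 6 libraries (adjusted p between 0.060 and 0.17). It was also lost with DESeq2 (adjusted p = 0.14), with DESeq2 size factors in edgeR (adjusted p = 0.075) and without a count filter (adjusted p = 0.21). IMPACT, an inhibitor of GCN2, fell by 0.29 on the log2 scale (adjusted p = 6.8e-05). The number that fell was 1 without vehicle replicate 2, cytokine replicate 2 or cytokine replicate 3.

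Of 33 genes of amino acid sensing by mTORC1, 11 rose, 6 fell and 16 did not pass, with a median of 0.05. With library size alone, 4 rose and 16 fell. FLCN and FNIP1, partners that act on the Rag GTPases, and the Rag GTPase RRAGC rose by log2 0.88, 0.70 and 0.88. WDR59 (log2 -0.45), MLST8 (log2 -0.35) and SESN1 (log2 -0.26) fell. The number that rose was 7 without vehicle replicate 3, and the number that fell was 3 without cytokine replicate 3.

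Of 17 genes of glutamine and glutamate metabolism, 16 were tested, 5 rose and 9 fell (3 rose with library size alone), with a median of -0.20. Those that rose included GAD1 (log2 1.47), which makes GABA from glutamate, GPT2 (log2 0.70), a mitochondrial alanine transaminase, and GLUL (log2 0.35), which makes glutamine. ALDH5A1 of GABA breakdown (log2 -0.79), the liver-type glutaminase GLS2 (log2 -0.78) and GPT (log2 -0.59) fell, though GPT was lost with DESeq2 (adjusted p = 0.098). Of 17 genes of branched-chain amino acid breakdown, 16 were tested, 2 rose and 6 fell. With library size alone 1 rose and 13 fell. PPM1K, the phosphatase that activates the branched-chain ketoacid dehydrogenase, averaged 96.6 ± 0.662 CPM in the cytokine group and 37.7 ± 3.88 CPM in the vehicle group (log2 1.33, edgeR adjusted p = 4e-18). MCCC2 rose by log2 0.29, a call lost with library size alone (log2 0.08, adjusted p = 0.18), while HIBADH (log2 -0.67), ACADSB (log2 -0.53) and BCAT2 (log2 -0.39) fell.

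Of 13 amino acid and peptide transporters of other families with collectrin, 12 were tested, 5 rose and 4 fell. SLC17A8 (VGLUT3), a vesicular glutamate transporter, had 158, 156 and 142 CPM in cytokine libraries, against 1.75, 2.94 and 2.57 CPM in vehicle libraries. It was 59.7-fold higher (log2 5.90, SE 0.0951, edgeR adjusted p = 4.2e-29). SLC17A6 (VGLUT2), its relative, averaged 92.3 ± 3.06 CPM in the cytokine group and 55.7 ± 2.30 CPM in the vehicle group (log2 0.72, edgeR adjusted p = 8.5e-13). SLC15A3, a lysosomal peptide carrier, had 36, 23 and 28 counts in cytokine libraries, against 1, 0 and 0 counts in vehicle libraries. SLC16A10, a carrier of aromatic amino acids, fell by 1.05 on the log2 scale (adjusted p = 2e-12), and SLC15A1, a peptide carrier, by 0.43 (adjusted p = 0.0022). The SLC15A1 call was lost with DESeq2 (adjusted p = 0.080).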

How the data were processed

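RNA was measured in 3 cytokine and 3 vehicle libraries of EndoC-BH5, prepared from total RNA by a directional NEBNext Ultra II kit, per the labels' protocols. Per the submitters' processing notes, which give no roles, the tools included cutadapt 2.10, STAR 2.7.5a and HTSeq 0.12.4, with the build GRCh38. Neither the annotation nor the use of strand in counting is stated there. An estimated count per gene and library, neither normalised nor always whole, was deposited by the authors, per the file headers and values. NT columns were read as the vehicle libraries because the rest are named for cytokine and the replicate numbers match the titles. The table also holds the authors' own test, deposited as log2 fold changes, log2 CPM, a score (F) and p-values with FDR, per the file headers. In the authors' deposited table, transporters called higher were 13 and lower 16 at an FDR below 0.05, 28 of these shared with the refit and all 28 with the same sign.

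Estimated counts were rounded to whole numbers, reduced by filterByExpr to 17847 genes and TMM-scaled (factors of 0.931, 0.932 and 0.935 in cytokine replicates 1, 2 and 3 and 1.08, 1.06 and 1.08 in vehicle replicates 1, 2 and 3). edgeR 4.0.16 (R 4.3.3) tested group with robust quasi-likelihood, and Benjamini-Hochberg adjustment ran over all tested genes at 0.05. Each SE is the absolute log2 fold change over the root of F. CPM were TMM-scaled, and CPM per kb used the union exon length of GENCODE 29. Log2 CPM for the ratio used a prior count of 2. With totals of 5871481 to 16175364 counts, a level of 1 CPM rests on few counts, fewest in vehicle replicate 1. On simulated counts with 50 genes changed at each size, the test recovered 44%, 80%, 96% and 100% at log2 0.25, 0.5, 1 and 2, with 2 false calls of 162. The simulation gave all genes the same biological spread, changed only genes above a minimum level and built in no shift in composition. Its rates therefore do not measure the errors in these data.

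Transporters and lists were chosen with earlier results of these data known. Values are given for transporters whose higher group averaged at least 5 CPM, or past the test with a log2 change of at least 1, which took 33. Of each list, up to 3 higher and 3 lower genes past the test with the largest change, and a higher group of at least 1 CPM, are named. SLC7A7, SLC6A2, SLC38A6, SLC3A1, SLC6A11 and SLC6A20 fall outside this rule and were named after their values were seen, and CLTRN is also given within its list. Alternatives were DESeq2 1.42.0, its size factors in edgeR, library size alone, no count filter, a minimum of 1 CPM in 3 libraries, a replicate block and leaving out each library. Same-numbered libraries of the groups did not deviate together (r = 0.014, -0.045 and -0.048).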

Additional observations from a re-analysis of the deposited data

How the results depend on the processing

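Over all alternatives the number of transporters that rose stayed between 10 and 14 and the number that fell between 12 and 17, while all genes called ranged from 7632 (DESeq2) to 11759 (library size alone). Of the transporters, 10 of the 14 that rose, 12 of the 15 that fell and 1 of the 7 that did not pass kept their direction and side of the threshold under every alternative that tested them, and no called transporter turned its sign. Calls were lost with DESeq2 for SLC1A2, SLC6A9, SLC6A16 and SLC7A7, with library size alone for SLC7A7, SLC36A1, SLC38A7 and SLC38A10, and without a count filter for SLC7A7. Library size alone reversed SLC1A4 (-0.18), SLC6A8 (-0.035), SLC7A6 (-0.089), SLC38A6 (-0.095) and SLC38A9 (-0.18), by its own shift of all genes. It passed SLC43A1 as lower (-0.31, adjusted p = 0.019). Leaving out 1 library gave SLC1A4 -0.029 to 0.065 and SLC38A9 -0.041 to 0.094. Library size alone gave 9 higher and 8 lower amino acid response genes, 4 and 16 mTORC1 genes, 3 higher glutamine and glutamate genes, and 1 higher and 13 lower branched-chain genes. DESeq2 gave 2 lower amino acid response genes, 1 lower kinase or GCN2 partner, 3 lower mTORC1 genes and 2 lower transporters of other families. Without a count filter 3 mTORC1 genes were lower. For the counts by DESeq2 and without a filter, the cause was not tested. Leaving out 1 library gave 12 to 17 higher and 2 to 4 lower amino acid response genes. It gave 1 to 2 lower kinases or partners, and 7 to 11 higher and 3 to 5 lower mTORC1 genes. The log2 ratio of SLC7A5 to SLC3A2 ranged from 0.71 to 0.79. With replicate number as a block, 14 transporters rose and 15 fell among 10111 genes called, and the log2 ratio of SLC7A5 to SLC3A2 differed by 0.74 (exact sign-flip permutation p = 0.25), so the block changed no call among the transporters; of the list genes named it ended the GCN1 call (adjusted p = 0.058). The titles give groups the same replicate numbers, with nothing saying that these pair libraries. At the depth of vehicle replicate 1, transporters under 1 CPM rest on a handful of counts.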
